A study of Mus musculus with 4 samples.

Results

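A set of 10 genes of the contractile apparatus of smooth muscle and myofibroblasts, Acta2, Actg2, Tagln, Myh11, Cnn1, Myl9, Lmod1, Smtn, Mylk and Cald1, was followed in the skin of Tsk1/+ mice. They were taken by gene symbol from the array's annotation, and all 10 were among the 19532 genes tested, through 19 of 41174 probes. RNA of Tsk1/+ skin was hybridised on 4 two-colour arrays, titled 1-1, 1-2, 2-1 and 2-2, each with cell-line RNA called UMR in the labels as the common reference. Tsk1 is a mutation of the gene for fibrillin-1, a microfibril protein, and mice carrying it are used as a model of scleroderma, a disease of skin fibrosis. The titles call the mice Tsk1 transgenic and the genotype field reads Tsk1/+. Age, sex, skin site, treatment and time are not given in the labels, nor is it said whether the 4 arrays stand for 4 animals. The p-values therefore reflect the spread among these 4 samples alone, and that spread may be technical. Wild-type skin was not analysed here, so each value sets Tsk1/+ skin against cultured cells and none tests the mutation.

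In smooth muscle, myosin II filaments built on the heavy chain Myh11 pull on actin filaments that contain Acta2 or Actg2. Contraction starts when calcium and calmodulin activate the kinase Mylk, which phosphorylates the regulatory light chain Myl9, and thin-filament proteins such as calponin (Cnn1), caldesmon (Cald1) and transgelin (Tagln) modify the response. In skin these proteins are found in the wall of blood vessels and in the small muscles that raise the hairs. Acta2 is also the standard marker of myofibroblasts, the contractile fibroblasts of healing wounds and fibrosis, and several of the genes, Tagln, Cald1 and Acta2 among them, are also made by many fibroblasts in culture.

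The deposited values are log ratios, and the labels give skin as Cy3 and reference as Cy5 without naming the numerator. To find the likely direction, 17 genes of the cornified epidermis were looked up. Of these, 10, 11, 16 and 14 had deposited values below 0 on arrays 1-1, 1-2, 2-1 and 2-2. At most 1 lay above 0 on any array, and the others were at 0. All signs were therefore turned, so that a positive log2 ratio means more RNA in skin than in the reference, and every "higher" and "lower" below rests on that reading. Skin carried the same dye on all 4 arrays, so a dye effect and a difference between skin and reference cannot be told apart. Exact zeros made up 21.4% to 29.1% of the probes of an array. Zeros and values shared by at least 100 probes of the array together made up 45.6% to 54.1%. The arrays correlated with Pearson's r of 0.87 to 0.92 across genes, which are not independent replicates. The ratio holds no separate level for skin or reference, and in whole skin fewer cells of a type and less RNA per cell cannot be told apart.

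Among the 10 contractile genes, Myh11 and Lmod1 were higher in Tsk1/+ skin than in the reference and Tagln and Cald1 were lower. The other 6 were not called. A gene was called where limma gave an adjusted p below 0.05 (Benjamini-Hochberg over all genes) and its mean lay 1 or more from 0 on the log2 scale. The 2 genes called higher stand beside 11.0% of all genes called higher, and the 2 called lower beside 7.51% of all genes called lower. Of the genes, 7 were above 0 on all 4 arrays and 3 were below 0 on all 4, so no gene mean changed sign between arrays. Acta2 and Myl9 were among the 7 and lay close to 0. The share of all genes with the same sign on 4 arrays is not given here, so this count cannot be set against it. The median of the 10 gene means was 0.37 on the log2 scale, against 0.02 for all genes tested, and lay between 0.26 and 0.45 on single arrays. The members were chosen with earlier results of these data known, and these counts describe them without testing them as a list.

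**Figure D1:**
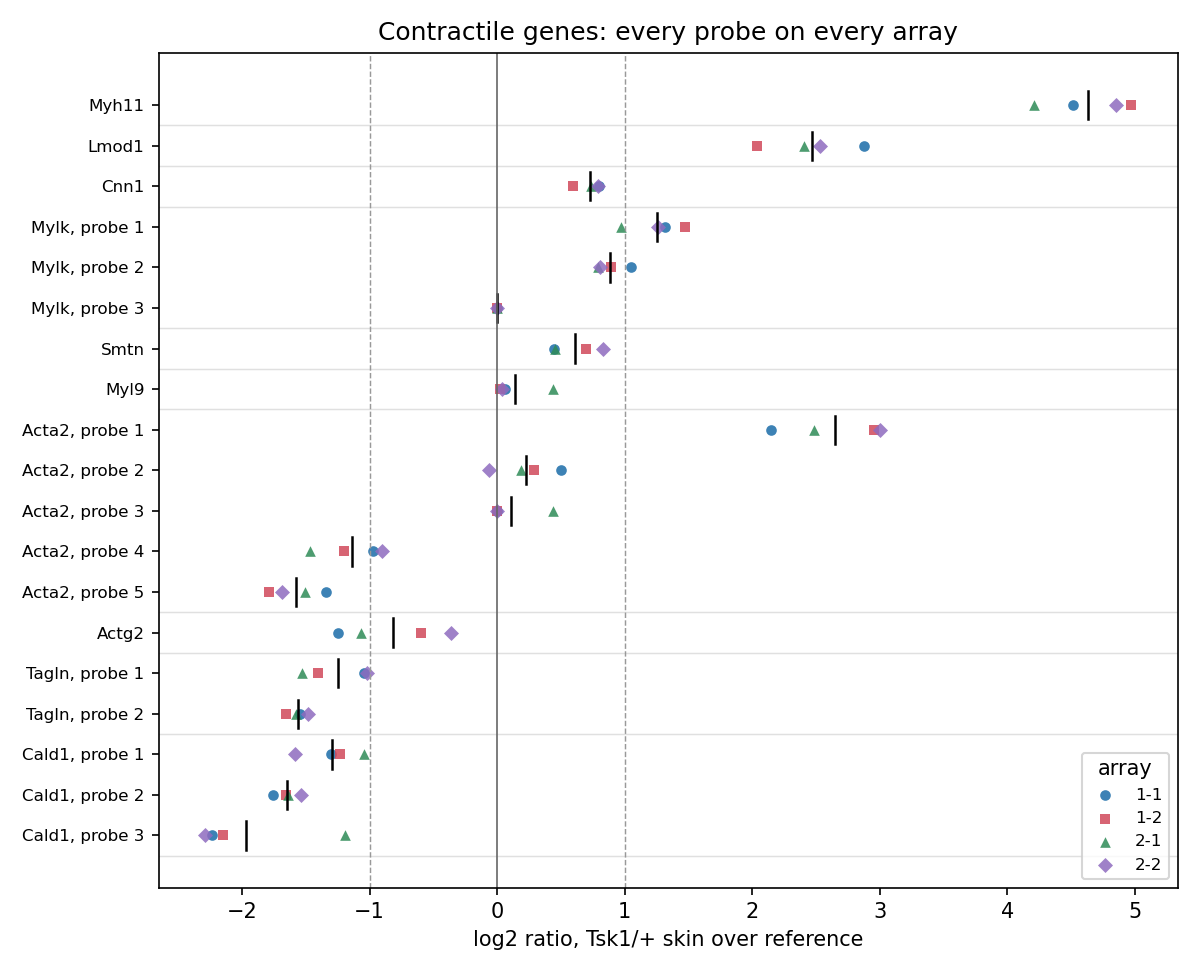
Log2 ratio of Tsk1/+ skin over reference (horizontal axis) for each of the 19 probes of the contractile genes (vertical axis). Symbols are the 4 arrays, black lines are probe means and dashed lines mark log2 ratios of -1 and 1; Myh11 lies farthest to the right, and the Acta2 probes lie on both sides of 0.

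Myh11, the smooth muscle myosin heavy chain, had the highest ratio of the 10. Its 1 probe stood at log2 ratios of 4.51, 4.97, 4.21 and 4.85 on arrays 1-1, 1-2, 2-1 and 2-2. Every array was far above 0 and the lowest array of Myh11 lay above the highest array of any other contractile gene. The mean was 4.64 ± 0.35 (SD, n = 4), a 24.9-fold higher signal in skin, with an adjusted p of 0.000472 in limma. This mean exceeded that of 98.8% of all genes tested. Myl9, the regulatory light chain that forms part of the same myosin, was not called. It stood at 0.06, 0.02, 0.44 and 0.04 on the 4 arrays, with array 2-1 apart from the other 3. Its mean was 0.14 ± 0.20 (SD, n = 4), with an adjusted p of 0.314 in limma. The 95% interval, taken from the SD of the 4 arrays and not from limma, was -0.17 to 0.45. Without array 2-1 the mean was 0.04.

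Mylk, the kinase that phosphorylates this light chain, had 3 probes that differed in level. The first stood at log2 ratios of 1.32, 1.48, 0.97 and 1.26 on arrays 1-1, 1-2, 2-1 and 2-2 and was called higher when tested on its own (1.26 ± 0.21, SD, n = 4, adjusted p = 0.00267 in limma over all named probes). The second stood at 1.05, 0.89, 0.79 and 0.81, above 0 on each array but with a mean of 0.89 under the minimum size. The third, annotated to a cDNA clone and not to the RefSeq mRNA, was listed at 0 on all 4 arrays. The gene mean over the 3 probes, 0.71 ± 0.10 (SD, n = 4, adjusted p = 0.00138 in limma), therefore includes a probe listed at 0 on every array. When exact zeros were left out the mean was 1.07 (adjusted p = 0.000178 in limma) and Mylk was called higher.

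Acta2, smooth muscle alpha-actin, gave opposite answers from different probes. Probe 1 stood at log2 ratios of 2.15, 2.96, 2.48 and 3.0 on arrays 1-1, 1-2, 2-1 and 2-2 and was called higher (2.65 ± 0.41, SD, n = 4, 6.26-fold, adjusted p = 0.00213 in limma over all named probes). Probe 5 stood at -1.34, -1.79, -1.50 and -1.68 on the same arrays and was called lower (-1.58 ± 0.20, SD, n = 4, adjusted p = 0.00147). Probe 4 stood at -0.97, -1.20, -1.47 and -0.90 and was also called lower (-1.14 ± 0.26, SD, n = 4, adjusted p = 0.00539). These 3 probes are all annotated to the same RefSeq mRNA of Acta2, and on no array did probe 1 overlap with probes 4 and 5. Within an array, probe 1 exceeded probe 5 by 3.49 to 4.75 and probe 4 by 3.12 to 4.16.

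The other 2 Acta2 probes are annotated to cDNA clones and were not called. Probe 2 stood at 0.50, 0.29, 0.19 and -0.07, all values that at least 100 probes of the array share, and probe 3 was listed at 0 on arrays 1-1, 1-2 and 2-2 and stood at 0.44 on array 2-1. Averaged over its 5 probes, Acta2 came to 0.07, 0.05, 0.03 and 0.07 on the 4 arrays, a mean of 0.05 ± 0.02 (SD, n = 4, adjusted p = 0.0841 in limma). That spread was the smallest of the 10 genes, although the probe means ran from -1.58 to 2.65. Of the 216 genes with 5 probes, Acta2 included, 6 (2.78%) had a gap between their highest and lowest probe mean at least as wide as the 4.23 of Acta2, and the median gap was 1.15. The gene average thus combines probes of opposite sign. Probe sequences were not used here, and which actin transcripts each probe detects was not tested.

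Actg2, the gamma-actin of visceral smooth muscle, had a single probe at log2 ratios of -1.25, -0.60, -1.07 and -0.36 on arrays 1-1, 1-2, 2-1 and 2-2. All arrays were below 0, but this gene had the widest spread of the 10. Its mean of -0.82 ± 0.41 (SD, n = 4) had an adjusted p of 0.0346 in limma and stayed under the minimum size, so it was not called.

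Smooth muscle genes are controlled by serum response factor, which binds the CArG box, a run of 10 bases that starts with CC, ends with GG and has 6 A or T bases between. The 250 bases upstream of the annotated start were searched for this box, and for boxes with 1 of the inner bases replaced by C or G, in the RefSeq promoter table (GRCm38.p6). Both forms read the same way on either strand, so the search covers both. The table holds 8 promoters for 7 of the 10 genes (Acta2, Cald1, Cnn1, Lmod1, Myl9, Mylk and Smtn). Among these 7 genes, an exact box was found in this window for Myl9 alone and a box of either form for Acta2 and Myl9. Sequence farther upstream or downstream of the start was not searched, so genes without a match may have boxes elsewhere. Over all 32851 promoters, counted per promoter and not per gene, the shares were 1.47% and 8.59%. Actg2, Myh11 and Tagln could not be searched. Both upstream stretches are shown because these genes have the motif while neither was called as a gene; boxes are in capitals.
Acta2: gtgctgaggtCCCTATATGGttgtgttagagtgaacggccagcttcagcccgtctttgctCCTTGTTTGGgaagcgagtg
Myl9: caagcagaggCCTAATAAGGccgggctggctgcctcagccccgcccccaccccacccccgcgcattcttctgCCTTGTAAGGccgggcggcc
The Acta2 stretch is chr19:34255388-34255467 on the minus strand, with boxes at -84 to -75 and -34 to -25 from the start. The Myl9 stretch is chr2:156775293-156775384 on the plus strand, with boxes at -161 to -152 and -99 to -90. A match describes the letters of the window and is not a measured binding site.

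Lmod1, leiomodin-1, which nucleates actin filaments in smooth muscle, was the second gene called higher. Its probe stood at log2 ratios of 2.88, 2.04, 2.41 and 2.54 on arrays 1-1, 1-2, 2-1 and 2-2, a mean of 2.47 ± 0.34 (SD, n = 4) or a 5.52-fold higher signal (adjusted p = 0.00131 in limma). Its lowest array lay above the highest array of Cnn1, the next gene in the order of gene means. Cnn1, smooth muscle calponin, stood at 0.80, 0.60, 0.73 and 0.79. The arrays of Cnn1 lay close together, and its mean of 0.73 ± 0.09 (SD, n = 4) had an adjusted p of 0.00123 in limma while staying under the minimum size. Smtn, smoothelin, a cytoskeletal protein of contractile smooth muscle, stood at 0.45, 0.70, 0.46 and 0.83 (0.61 ± 0.19, SD, n = 4, adjusted p = 0.00954 in limma). It too was above 0 on each array and not called. The array ranges of Cnn1, Mylk and Smtn overlapped, so the order among these 3 is not resolved.

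Tagln, transgelin or SM22-alpha, an actin-binding protein of smooth muscle and of cultured fibroblasts, was lower in skin on both of its probes. Probe 1 stood at log2 ratios of -1.05, -1.41, -1.53 and -1.02 and probe 2 at -1.54, -1.66, -1.58 and -1.48 on arrays 1-1, 1-2, 2-1 and 2-2. Both probes were below -1 on every array. The gene mean was -1.41 ± 0.16 (SD, n = 4), a 2.65-fold lower signal in skin than in the reference (adjusted p = 0.000872 in limma). Only 4.25% of genes tested had a lower mean.

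Cald1, caldesmon, which binds actin and myosin and has a long smooth muscle form and a shorter form in other cells, was lower on all 3 probes. Probe 3 stood at log2 ratios of -2.24, -2.15, -1.19 and -2.29, with array 2-1 nearer to 0 than the other arrays. Probe 2 stood at -1.75, -1.66, -1.64 and -1.54 and probe 1 at -1.31, -1.23, -1.05 and -1.58. The gene mean was -1.64 ± 0.23 (SD, n = 4), a 3.11-fold lower signal (adjusted p = 0.00139 in limma), and the lowest of the 10. Array ranges of Cald1 and Tagln overlapped. Which of the long and short forms the probes detect was not tested.

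**Figure D2:**
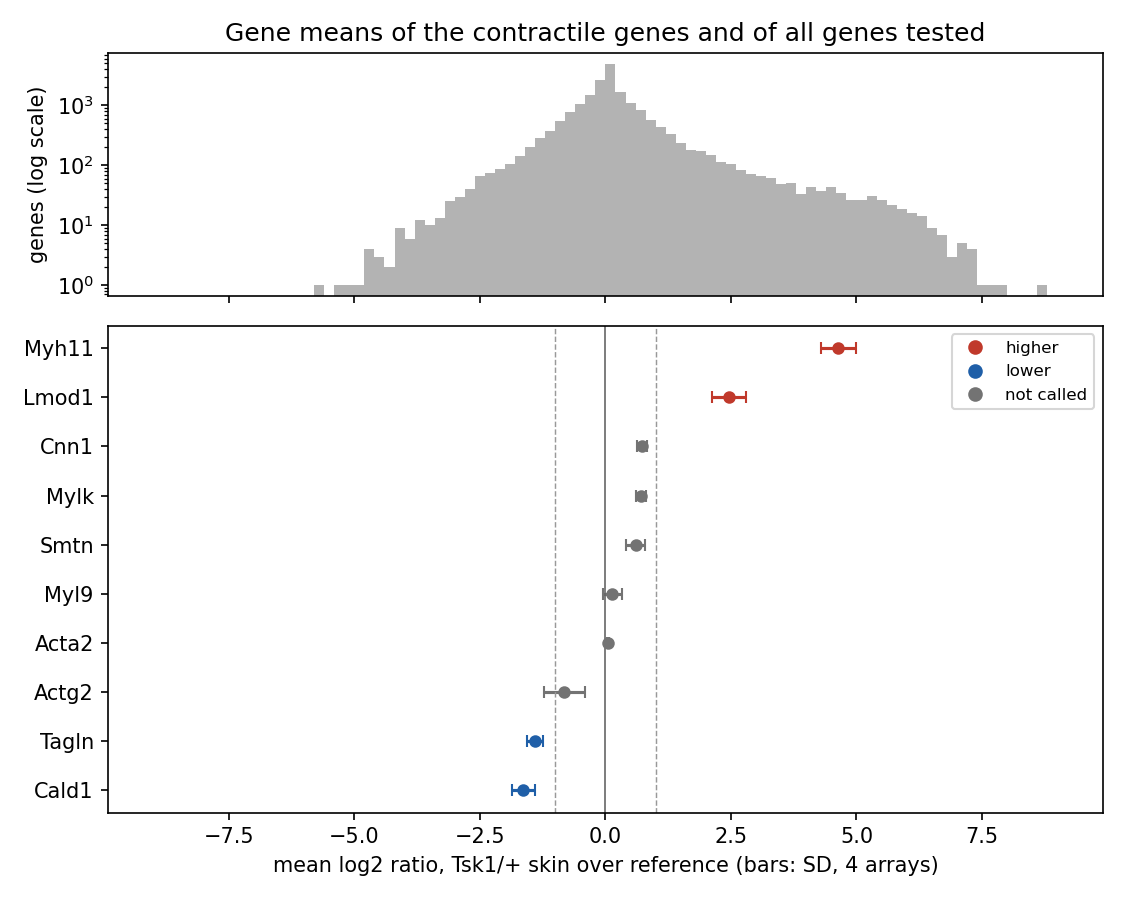
Lower panel, mean log2 ratio of each contractile gene with its SD over 4 arrays, coloured by whether it was called higher, lower or not called, with dashed lines at -1 and 1. Upper panel, all 19532 gene means on the same horizontal axis, with a logarithmic count axis; Myh11 lies in the far right tail and Cald1 and Tagln on the left shoulder.

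At the level of single probes, 4 of the 19 were called higher, beside 10.5% of all named probes, and 7 were called lower, beside 8.22%. The 4 were those of Myh11 and Lmod1 and the first probes of Mylk and Acta2. The 7 were all probes of Tagln and Cald1 and probes 4 and 5 of Acta2. Of the 8 not called, 3 were at 0 or on a value shared by at least 100 probes on 3 or more arrays, namely probes 2 and 3 of Acta2 and the third Mylk probe. The probe-level test was added after the data were seen. In the order of gene means, 5 of the 9 neighbouring pairs did not overlap in their array values, and 4 did. The order comes from these same values, so the count does not test it. The share for neighbouring pairs of all genes is not given. Smtn and Myl9 were nearly touching (lowest array 0.449 against highest 0.436), as were Actg2 and Tagln (-1.25 against -1.2525). The place of Acta2 in the order rests on an average of probes of opposite sign.

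Paralogs of the contractile genes were read beside them, family by family. Of 22 paralogs, 6 (27.3%) were called higher and 1 (4.55%) lower, beside 11.0% and 7.51% of all genes. In the actin family, Acta1, the skeletal muscle alpha-actin, was higher (log2 ratio 5.81 ± 0.42, SD, n = 4 here and for each value with ± that follows). Actc1, the cardiac form, was lower (-1.0 ± 0.26, adjusted p = 0.00559 in limma). The cytoplasmic actins Actb (0.36 ± 0.65) and Actg1 (-0.16 ± 0.24) were not called, and Actb ran from -0.46 on array 2-1 to 0.90 on array 2-2. The muscle actins thus lay on both sides of 0.

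Nonmuscle myosin heavy chains Myh9 (-0.76 ± 0.30, adjusted p = 0.0186 in limma) and Myh10 (-0.80 ± 0.04, adjusted p = 0.000369 in limma) were not called. Both were below 0 on all 4 arrays and stayed under the minimum size. The 3 Myh10 probes had means from -1.58 to 0. By contrast, Myh14, another nonmuscle form, was higher (2.39 ± 0.18), with 1 of its 2 probes at a mean of 0 and the other at 4.77. The light chains Myl12a (-0.23 ± 0.20), Myl12b (0.02 ± 0.02) and Myl6 (0.29 ± 0.15), which are widely expressed, were not called. Myl2 was not called either (listed at 0 on array 1-2, otherwise 0.50 to 1.00). Nor was Myl7 (listed at 0 on arrays 1-1 and 2-2, and at -0.59 and 0.44 on arrays 1-2 and 2-1). The myosin chains measured as skeletal muscle markers were not on the paralog list. The heavy chains Myh2 (6.51 ± 0.76), Myh4 (5.74 ± 0.66) and Myh1 (5.26 ± 0.77) had higher mean ratios than Myh11, and the light chains Myl1 (6.35 ± 0.39) and Mylpf (6.27 ± 0.58) higher ones than Myl9.

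Mylk2, the skeletal muscle light chain kinase, was higher (5.79 ± 0.72) and Mylk4 was listed at 0 on all arrays. The calponins Cnn2 (-0.52 ± 0.33) and Cnn3 (-0.14 ± 0.14) and the transgelins Tagln2 (0.24 ± 0.20) and Tagln3 (0.35 ± 0.15) were not called. Lmod3, the skeletal muscle leiomodin, was higher (5.80 ± 0.31), and Lmod2 was listed at 0 on 3 arrays and stood at 4.24 on array 2-1. The smoothelin-like genes Smtnl1 (4.04 ± 0.62) and Smtnl2 (2.83 ± 0.25) were higher. The skeletal muscle paralogs Acta1, Mylk2 and Lmod3 thus had higher mean ratios than Acta2, Mylk and Lmod1.

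**Figure D3:**
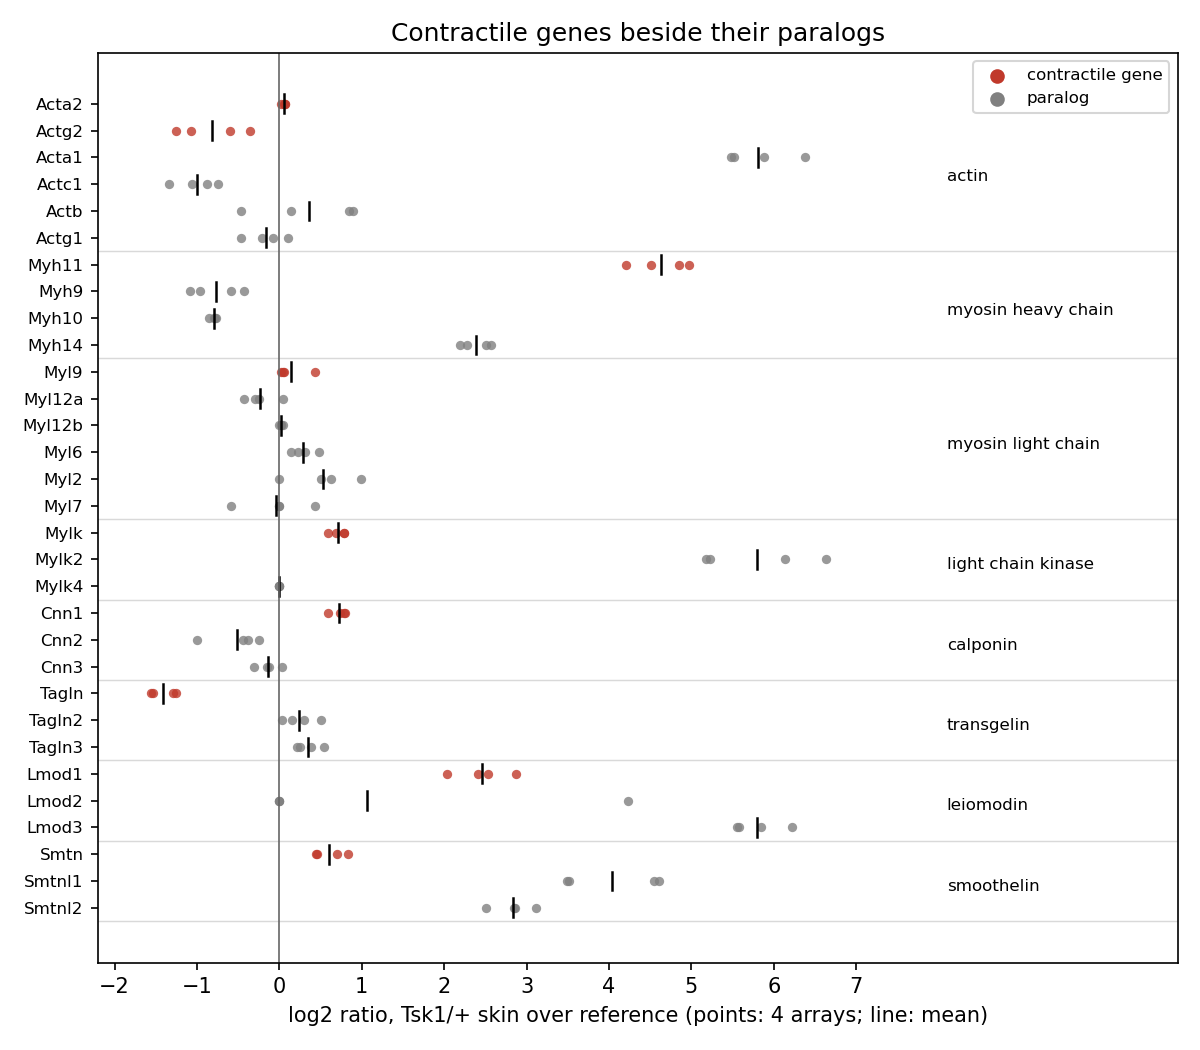
Log2 ratio of Tsk1/+ skin over reference on each of 4 arrays for 8 protein families, with contractile genes in red and the listed paralogs in grey. Myosin chains of the skeletal muscle marker list are not drawn, and black lines are gene means. Acta1, Mylk2 and Lmod3 lie near 5.8, to the right of Acta2, Mylk and Lmod1 of the same families.

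Other genes of smooth muscle and of mural cells, the smooth muscle cells and pericytes around vessels, were measured for 42 symbols. Of these, 19 (45.2%) were called higher and none lower in limma, beside 11.0% and 7.51% of all genes; the list median was 1.06. At an unadjusted p under 0.05, 2 lay below 0. The 3 lowest were Lpp (-0.66 ± 0.13) and Csrp2 (-0.61 ± 0.10), proteins of focal adhesions and the actin cytoskeleton, and Kcnmb1, a potassium channel subunit of smooth muscle (-0.08 ± 0.12). The 3 highest were the Z-disc and actin-linked protein Pdlim3 (6.40 ± 0.60) and the intermediate filament proteins Synm (5.23 ± 0.21) and Des (4.40 ± 0.29), which striated muscle also makes. All 13 skeletal muscle markers were higher in the same arrays, from Neb (2.84 ± 0.64) to Actn2 (6.63 ± 0.79), with a list median of 5.48 to 6.58 on single arrays. The part of skeletal muscle in the smooth muscle and mural list was not tested.

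Of the 9 mural markers, 5 (55.6%) were called higher and none lower in limma, and none lay below 0 at an unadjusted p under 0.05. Of all genes, 11.0% were called higher and 7.51% lower, and these shares stand beside each marker count in this paragraph. The list median was 1.00 to 2.02 on single arrays. Des was the highest and Heyl, a Notch target, the lowest (0.82 ± 0.28). Notch3, the Notch receptor of arterial smooth muscle, was called higher (1.30 ± 0.14, adjusted p = 0.000780 in limma). Rgs5, a pericyte marker, stood at 1.82, 4.64, 4.76 and 2.82 on arrays 1-1, 1-2, 2-1 and 2-2, a wider spread than any of the 10 contractile genes. Kcnj8, a potassium channel subunit of pericytes, was listed at 0 on 3 arrays and stood at 5.04 on array 2-1. Of the 6 dermal fibroblast markers 4 were higher, from Pdgfra (-0.57 ± 0.33, not called) to Lum (6.40 ± 0.08). Of the 6 keratinocyte markers 5 were higher, from Dsg3 (listed at 0 on array 2-2, otherwise 0.71 to 0.90) to Lor (6.81 ± 0.71). Lor, Krt1 and Krt10 of this list were among the 17 genes from which the direction was read. Their sign is therefore not a separate result. Of the 5 endothelial markers 3 were higher; Pecam1 was the lowest (0.92 ± 0.46, not called) and Cldn5 the highest, listed at 0 on array 2-2 and otherwise between 4.75 and 6.77. Of 5 genes for myoepithelium and sweat gland, Krt17 was higher (4.47 ± 0.53) and Krt8 and Krt18 lower, Krt18 at -4.84 ± 0.31.

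Myosin phosphatase opposes Mylk by removing phosphate from the myosin light chain. Ppp1r14a, known as CPI-17, an inhibitor of this phosphatase in smooth muscle, was called higher (2.42 ± 0.39, adjusted p = 0.00183 in limma), at 2.04, 2.15, 2.58 and 2.89 on arrays 1-1, 1-2, 2-1 and 2-2. Its relative Ppp1r14b was not called (0.58 ± 0.24). No subunit of the myosin phosphatase was called. Its catalytic subunit Ppp1cb stood at 0.62 ± 0.17, the related Ppp1ca at 0.18 ± 0.21, and the targeting subunits Ppp1r12a, Ppp1r12b and Ppp1r12c at -0.16 ± 0.07, 0.71 ± 0.22 and 0.04 ± 0.15. The 4 Ppp1r12b probes ran from -0.16 to 1.29 in their means.

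Srf and myocardin, which are among the factors that drive contractile genes, were not called. Srf, serum response factor itself, stood at 0.21, 0.02, -0.22 and 0.05 on arrays 1-1, 1-2, 2-1 and 2-2, around 0 with no common sign. Its mean was 0.02 ± 0.18 (SD, n = 4, adjusted p = 0.936 in limma). Myocd, myocardin, the smooth and cardiac muscle coactivator of Srf, stood at 0.05, 0.38, -0.31 and 0.23, and was likewise on both sides of 0 (adjusted p = 0.655). The related coactivators Mrtfa and Mrtfb were not called either. Mrtfa was below 0 on all 4 arrays, at -0.44, -0.27, -0.70 and -0.69 (-0.52 ± 0.21, adjusted p = 0.0187 in limma). Mrtfb had a mean of 0.08 ± 0.15. Of the 20 genes on this list, 4 (20%) were higher and 1 (5%) lower, beside 11.0% and 7.51% of all genes. Fhl1, a LIM-domain protein abundant in striated muscle, was the highest (5.77 ± 0.18), followed by Klf4, a factor that represses smooth muscle genes and is also made in the upper epidermis (3.31 ± 0.26), and Mef2c (1.25 ± 0.26, with probes at -0.12 and 2.63). Nkx2-3 was called lower (-1.09 ± 0.26), and Fhl2 (-0.97 ± 0.09) and Gata6 (-0.74 ± 0.09) were next and not called. Fhl2 had 3 probes with means from -2.83 to 0.

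Of 18 measured genes linked to myofibroblasts and their matrix, 9 (50%) were called higher and 2 (11.1%) lower. Of all genes, 11.0% were higher and 7.51% lower. The list median was 0.88, against 0.02 for all genes. Fap, a surface protease of activated fibroblasts (2.27 ± 0.48), Postn, periostin (2.13 ± 0.05), and Thy1, a fibroblast surface protein (1.76 ± 0.12), were highest. Cdh11, a cadherin of fibroblasts (-1.70 ± 0.15), and Tnc, tenascin-C (-1.04 ± 0.22), were called lower, and Tgfb1 was the next lowest (-0.80 ± 0.22). Probes of single genes differed here as well, since Postn had 1 probe at a mean of 0 and 1 at 4.25, and Fap had means of 0.20 and 4.33. The lists share genes, such as Ppp1r14a, Csrp1 and Col1a1, so their counts do not add up to separate evidence.

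**Figure D4:**
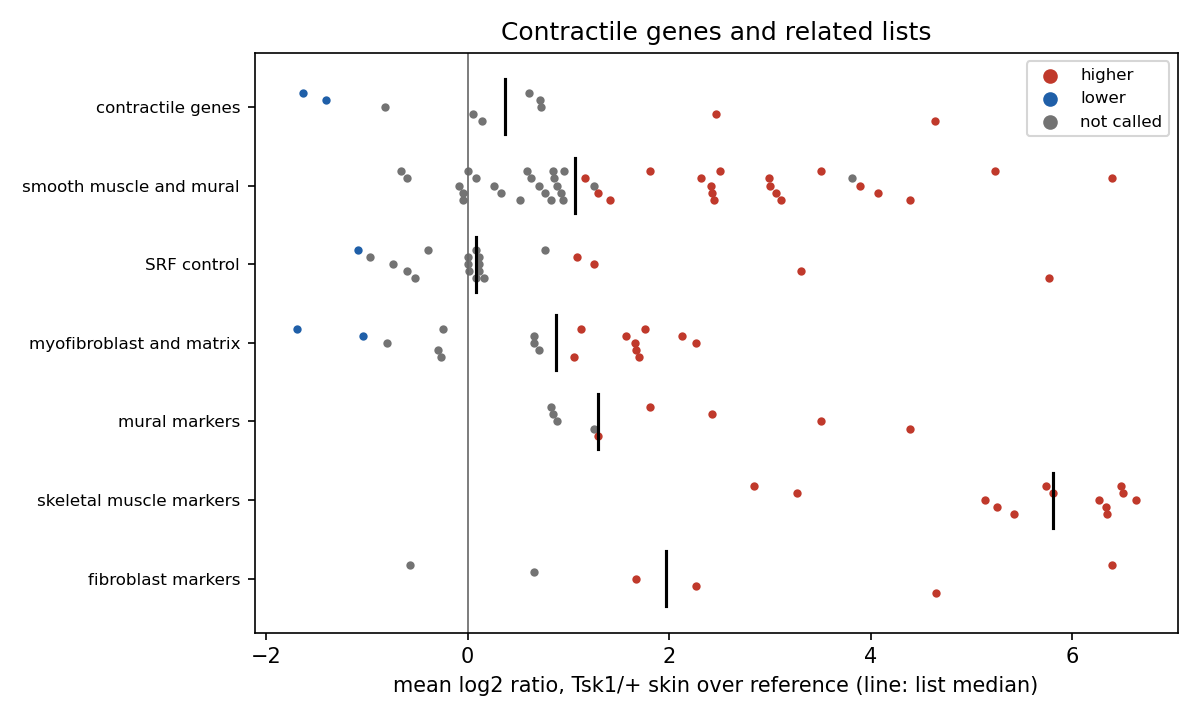
Mean log2 ratio of Tsk1/+ skin over reference for each gene of 7 lists, coloured by whether the gene was called higher, lower or not called; black lines are list medians. The 10 contractile genes have a median of 0.37, the smooth muscle and mural list 1.06 and the skeletal muscle markers 5.81.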

How the data were processed

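The values are log ratios as deposited by the authors. Base 2 is an inference, described below, and every fold value and the minimum size of 1 rest on it. The sources used here do not give background correction, normalization or build. Per the labels, skin was Cy3 and the reference Cy5. Base 2 was taken from the spacing of repeated values: among the 40 commonest values of each array, 21 of 3120 pairs lay 2 times log2 of 2 apart (tolerance 0.001), while the natural log gave 2 such pairs and log10 gave 3. Each column's deposited median was 0; genes were not centred, since gene means had an SD of 1.16 against a median SD of 0.20 between arrays. How arrays were centred stays unknown. Of the probes, 32664 have 1 gene symbol, 45 several and 8465 none in the platform annotation; 32524 matched a RefSeq gene by Entrez ID. Signs were turned and probes averaged per gene.

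Means were tested against 0 with limma 3.58.1 (R 4.3.3; lmFit, eBayes, two-sided), over genes with values on at least 3 arrays, and tested on simulated data. Figures used matplotlib 3.10.9. Named genes are all 10 members and their paralogs and the myosin phosphatase genes. Also named are the 3 highest and 3 lowest of each list with values on all 4 arrays, and the highest and lowest marker. Notch3, Rgs5, Kcnj8, Krt8, Myh1, Myh2, Myh4, Myl1, Mylpf, Srf, Myocd, Mrtfa and Mrtfb were added after their values were seen. Part of 1 list is not reported here. Members and lists were chosen with earlier results of these data known. The number of arrays limits the precision.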

Additional observations from a re-analysis of the deposited data

Results flagged for a closer look

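The check covered 22 sets of 4 array values, 10 gene means and 12 probes of genes with several probes. In 3 sets, 1 array lay far from the other 3. The cut-off flags about 1 in 20 separate sets of continuous values by chance. That rate does not apply here, since the 12 probes also enter gene means and some values are exact zeros. The 3 flagged values were all on array 2-1. Myl9 stood at 0.436 there and between 0.02 and 0.06 on the others. Probe 3 of Acta2 stood at 0.438, a value that at least 100 probes of that array share, and was listed at 0 elsewhere. Probe 3 of Cald1 stood at -1.194, against -2.29 to -2.15 on the others; Cald1 without array 2-1 had a mean of -1.75 and was still called lower. Array 2-1 also had the smallest share of exact zeros, 21.4%, and the part of this in the 3 values was not tested.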

How the results depend on the processing

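Myh11 and Lmod1 were called higher, and Tagln and Cald1 lower, under all 18 alternatives, including each array left out, averaging the arrays that share a first title number, and limma's treat against a 2-fold change. Acta2 turned to -0.022 without zeros and repeated values, and to -0.022 with only probes that have a RefSeq mRNA accession (chosen after seeing the data). Taking the probe with the largest mean in size, it was called higher at 2.65, and 4 contractile genes were called higher in place of 2, with 2200 of all genes lower. With no minimum size, 5 contractile genes were higher and 3 lower (Actg2 added), and 4534 of all genes were higher and 3870 lower, in place of 2150 and 1466. With treat, 1338 genes were higher and 694 lower. These shifts follow from the probe chosen or the threshold set. Mylk was called higher in 5 alternatives, those above with no minimum size, the largest probe, or its probe at 0 removed. With 1 array left out, 1987 to 2162 genes were higher and 1327 to 1467 lower. Scaling between arrays changed no call of the 10 genes. No paired analysis was possible because there is 1 group. Signal over background is not given, so how far dim spots limit single probes was not tested.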
